A study of Homo sapiens with 4 samples.

Results

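This section covers 10 genes of prolactin receptor, STAT5 and SOCS signalling in T47D cells, a breast cancer cell line that carries the progesterone receptor (PR). The genes were the prolactin receptor *PRLR*, the kinases *JAK1* and *JAK2*, the transcription factors *STAT3*, *STAT5A* and *STAT5B*, and the feedback inhibitors *SOCS1*, *SOCS2*, *SOCS3* and *CISH*. They were chosen by name, and all 10 were found among 23287 gene symbols, with 19 of 41138 transcripts. RNA was sequenced from 1 library of cells given the vehicle ethanol (EtOH) and 1 library of cells given the synthetic progestin R5020, and 11181 PR binding sites came from 1 chromatin immunoprecipitation (ChIP-seq) library. Per the study's methods, R5020 was used at 10 nM, for 3 h before RNA isolation and for 1 h before ChIP. All cells were kept in charcoal-stripped serum before harvesting, for longer before ChIP than before RNA isolation. The cells are a single established line, so the values describe that line alone. In a bulk culture, fewer cells of a type and less RNA per cell cannot be told apart.

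Prolactin and growth hormone act through receptors that have no kinase of their own and that signal through the bound kinase JAK2. JAK2 phosphorylates STAT5 proteins, which enter the nucleus and bind palindromic DNA letters near milk protein genes and near the genes of their own inhibitors. SOCS proteins and CISH are made in response to STAT activity and shut the receptor complex down, which forms a negative feedback loop. In the mammary gland progesterone and prolactin act together in pregnancy, when STAT5A is needed for the alveoli to form.

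Each condition had 1 library, so the differences between R5020 and EtOH could not be set against a spread between cultures and carry no p-values. Expression is given as FPKM, which corrects fragment numbers for transcript length and library depth, summed over the transcripts of a gene. Changes are log2((FPKM in R5020 + 1) / (FPKM in EtOH + 1)), a scale on which the pseudocount of 1 shrinks the change of a gene near or below that level. A gene was retained if its FPKM was 1 or more in at least 1 library, and it was called higher or lower at 1.5-fold on that scale. All transcripts together held 35151493 read equivalents in EtOH and 36203604 in R5020, that is, deposited coverage times length divided by the read length of 50 bases. *FKBP5*, a classical progestin target read as a check of the treatment, went from 15.9 to 86.6 FPKM (log2 change 2.38). Of 8 luminal epithelial markers, 6 reached an FPKM of 1 in EtOH and 8 did in R5020; the other two, *KRT8* and *KRT18*, were listed at 0 in EtOH because the estimate of all 6 of their transcripts had failed. The 6 markers with an estimate in both libraries were all at a lower FPKM in R5020, 4 of them by 1.5-fold or more, namely *FOXA1* (log2 change −2.05), *GATA3* (−0.998), *ESR1* (−0.61) and *PGR* (−0.60), and their part in the results below was not tested. None of the markers of basal cells, leukocytes or endothelium reached 1, and of 3 fibroblast markers *COL1A1* did (5.12 and 3.31 FPKM).

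Of the 10 genes, 6 were retained, and *STAT5A* and *JAK2* were higher in R5020 than in EtOH by 1.5-fold or more while none was lower. Among all 11018 retained genes, 7.67% were higher and 4.14% lower by the same measure. Failed estimates listed at 0 were kept as 0 in these shares, so *KRT8* and *KRT18* were among the higher genes. How many other genes this concerns was not counted. The remaining 4 retained genes, *PRLR*, *JAK1*, *STAT3* and *STAT5B*, stayed under 1.5-fold. *STAT5A* and *JAK2* were retained only through their R5020 values, since both were listed below an FPKM of 1 in EtOH. The listed EtOH value of *JAK2*, 0.895, lay below the deposited interval for it, which is given below. *SOCS1*, *SOCS2*, *SOCS3* and *CISH* stayed below an FPKM of 1 in both libraries and were not retained, among them the 2 members whose log2 change was below 0 (*SOCS3*, −0.18, and *CISH*, −0.45). The direction of the retained members was therefore partly set by the filter. So was the place of *STAT5A* and *JAK2* among the retained genes, which is given below as a description only.

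**Figure D1:**
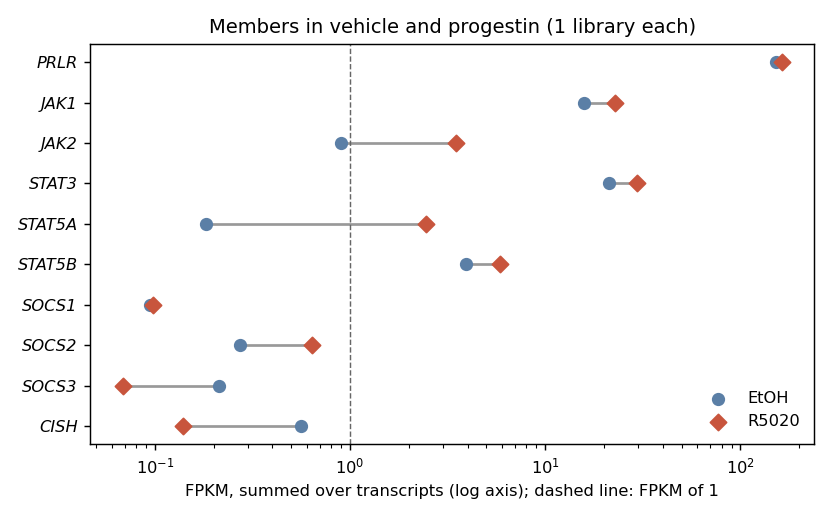
FPKM of the 10 genes, summed over transcripts, in the EtOH library (circles) and the R5020 library (diamonds), on a log axis, with 1 library per condition and a dashed line at an FPKM of 1. *STAT5A* (0.183 to 2.45) and *JAK2* (0.895 to 3.48) cross the line, *PRLR* hardly moves (151.8 and 162.4), and the 4 inhibitor genes stay left of the line.

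*PRLR* was by far the most abundant of the 10 genes. Its FPKM was 151.8 in EtOH and 162.4 in R5020, which placed it 113th and 109th of 23287 symbols. Failed estimates were kept at 0 in the ranks, *KRT8* and *KRT18* in EtOH among them. These ranks and those below may therefore not compare exactly between the libraries. The log2 change was 0.10, and 64.2% of the retained genes had a lower one, with the sign kept, so that every gene that fell counts as lower. The ligand was barely seen in these cells, with *PRL* at 0.0287 FPKM in EtOH and at 0 in R5020, while *GH1* and *CSH1*, which encode growth hormone and placental lactogen, were listed at 0 in both libraries. The growth hormone receptor gene *GHR* stood at 17.5 and 20.5 FPKM.

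Reads were assigned to only 2 of the 7 transcript variants of *PRLR*, and the other 5 were listed at 0 in both libraries. The variant NM_000949 stood at 119 FPKM in EtOH and 132 in R5020 (log2 change 0.14). The variant NM_001204314 had 32.5 and 30.7 (log2 change −0.08), so its share of the *PRLR* FPKM was 21.4% in EtOH and 18.9% in R5020. Cufflinks, the program behind these values, gives each FPKM an interval that covers the assignment of reads within 1 library and not the spread between cultures. The intervals of NM_001204314, 32.1 to 33.6 in EtOH and 30.3 to 31.8 in R5020, did not overlap, although its log2 change was only −0.08. The share of all transcripts with intervals apart was not counted. Intervals that are apart are therefore not read as a change, here or below. For NM_000949 the deposited FPKM lay below its own interval in both libraries (120.3 to 122.6 in EtOH, 133 to 135 in R5020), so these intervals are not bounds on the listed value.

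Of the kinases, *JAK2*, which binds the prolactin receptor directly, was higher in R5020. Its FPKM was 0.895 in EtOH and 3.48 in R5020, a log2 change of 1.24 and a 3.89-fold ratio of the FPKM values themselves. This moved the gene from rank 10892 to rank 7161, and 97.6% of the retained genes had a lower change, with the sign kept. The read equivalents behind the values were 457 and 1708. As for the *PRLR* variant, the FPKM of the single *JAK2* transcript lay below its own interval in both libraries, which ran from 1.13 to 1.498 in EtOH and from 4.70 to 5.43 in R5020. The intervals of the libraries did not overlap.

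*JAK1*, the kinase of interferon and gp130 receptors, was the more abundant kinase in both libraries. It had 15.9 FPKM in EtOH and 22.8 in R5020 (log2 change 0.50, a ratio of 1.44), short of 1.5-fold. *JAK2* made up 5.34% of the *JAK1* and *JAK2* FPKM in EtOH and 13.2% in R5020. The ratio of *PRLR* to *JAK2* went from 170 to 46.7.

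Of the signal transducers, *STAT5A* had the largest log2 change of the 6 retained members. It stood at 0.183 FPKM in EtOH, behind which were 54.8 read equivalents, and at 2.45 in R5020, with 898. The log2 change was 1.55, and 98.6% of the retained genes had a lower one, with the sign kept. Without a pseudocount the FPKM values differed 13.4-fold, a ratio that rests on the low EtOH value. The deposited intervals of its single transcript, 0.118 to 0.246 and 1.98 to 2.53, were apart.

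*STAT5B*, the close paralog that serves growth hormone in liver and muscle, was the more abundant STAT5 gene in both libraries. Its FPKM was 3.93 in EtOH and 5.87 in R5020 (log2 change 0.48, intervals 3.61 to 4.27 and 5.49 to 6.26). The ratio of *STAT5B* to *STAT5A* was 21.5 in EtOH and 2.39 in R5020, so that *STAT5A* went from 4.44% to 29.5% of the STAT5 FPKM. The sum of both genes was 4.11 in EtOH and 8.32 in R5020. Because reads with several positions were discarded by the authors, sequence shared by the paralogs matters here. Of the 4252 windows of 50 bases in the longest *STAT5A* transcript of the GENCODE annotation, 507 (11.9%) also occur in any *STAT5B* transcript there. For the longest *STAT5B* transcript against any of *STAT5A* they were 504 of 7296 (6.91%). That *STAT5B* transcript has 7345 bases, while the one with the FPKM above has 5094, so the share in the latter may differ.

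*STAT3*, which serves the IL-6 family and drives involution after weaning, was the most abundant of the STAT members, with 21.2 FPKM in EtOH and 29.6 in R5020 (log2 change 0.47). Its ratio to *STAT5B* was 5.39 in EtOH and 5.05 in R5020. Reads were assigned to 2 of its 3 transcript variants. NM_139276 had 12.4 and 18.2 FPKM (log2 change 0.52) and NM_003150 had 8.76 and 11.4 (0.35), and for both the intervals of the libraries were apart. The share of NM_003150 was 41.4% in EtOH and 38.6% in R5020. Between them, the 3 genes *JAK1*, *STAT3* and *STAT5B* had log2 changes of 0.47 to 0.50, all just below the 1.5-fold line.

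**Figure D2:**
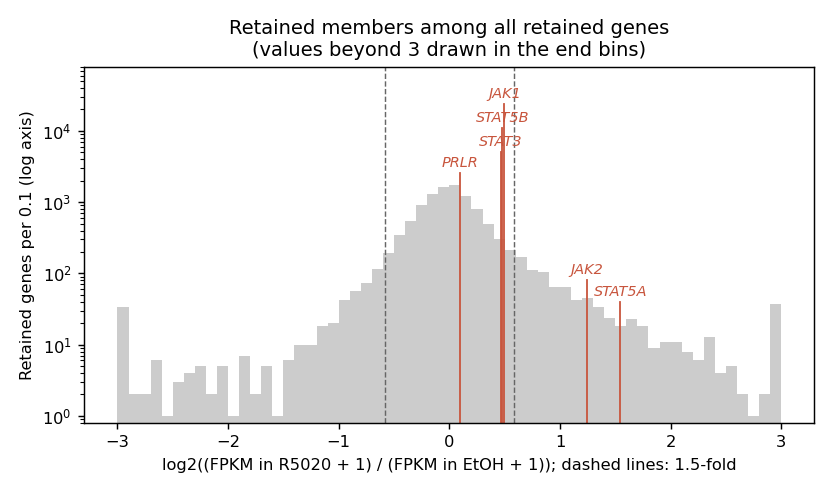
Histogram of the log2 change from EtOH to R5020 over the 11018 retained genes, in bins of 0.1 with the number of genes on a log axis, and red lines at the 6 retained members. *PRLR* (0.10) lies near the centre, *STAT3*, *STAT5B* and *JAK1* (0.47 to 0.50) lie just inside the dashed line at 1.5-fold, and *JAK2* (1.24) and *STAT5A* (1.55) lie beyond it.

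The genes nearest to the 2 higher members in their pair of FPKM values were found as the smallest distance over the 2 RNA libraries on the log2(FPKM + 1) scale. For *STAT5A* they were *KLF15* (0.148 and 2.51 FPKM), *EAF2* (0.263 and 2.79) and *HERC5* (0.269 and 2.14). For *JAK2* they were *C3orf70* (0.767 and 3.24), *CCDC96* (0.755 and 3.21) and *CHST10* (1.02 and 3.15). With 2 points per gene this likeness is no more than a similar level and a similar change.

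The 4 feedback inhibitors were read from few fragments. *CISH*, a direct STAT5 target that binds the phosphorylated receptor, had 0.561 FPKM in EtOH and 0.140 in R5020, with 101 and 26.9 read equivalents. The EtOH value was 4.01 times the R5020 value and the log2 change with the pseudocount was −0.45. The intervals of its transcript NM_145071, 0.384 to 0.738 and 0.0310 to 0.233, were apart, and its other transcript was listed at 0.

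*SOCS2*, the main brake on growth hormone signalling, went the opposite way, with 0.275 FPKM in EtOH and 0.637 in R5020, a ratio of 2.32 and a log2 change of 0.36. Its intervals (0.175 to 0.368 and 0.458 to 0.812) were apart as well. *SOCS3*, which inhibits gp130 receptors, had 0.214 and 0.0689 FPKM, and its intervals (0.0744 to 0.231 and 0.0154 to 0.116) overlapped. *SOCS1*, an inhibitor of interferon signalling, was at 0.0949 and 0.0981 FPKM, with 11.6 and 11.5 read equivalents. No fold was called for any of these genes, since all lay below an FPKM of 1.

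**Figure D3:**
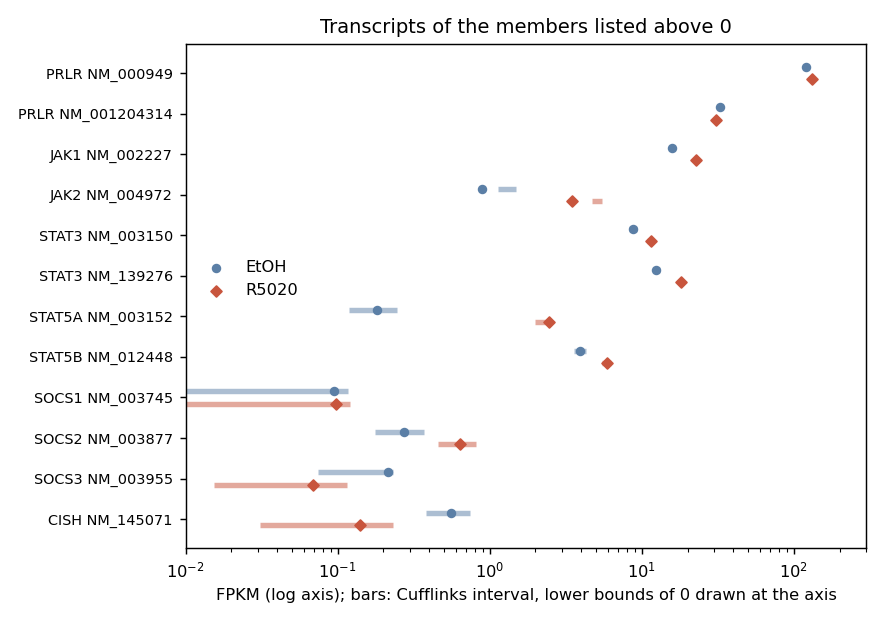
FPKM of the 12 member transcripts listed above 0, in EtOH (circles) and R5020 (diamonds) on a log axis, with bars for the interval Cufflinks gave within each library. The *STAT5A* symbols (0.183 and 2.45) lie farthest apart, the *JAK2* symbols lie left of their own bars, and the bars of *SOCS1* and *SOCS3* overlap between the libraries.

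Over transcripts in place of genes, 8 of the 19 member transcripts were retained, and the single transcripts of *STAT5A* and *JAK2* were the 2 called higher, with none lower. Among the 13625 retained transcripts 11.3% were higher and 8.34% lower. A further 7 of the 19 transcripts were listed at 0 in both libraries.

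Some of the loci overlap genes on the opposite strand, and whether the counting used strand was not given in the sources used here, so reads from such a pair cannot be told apart there. *SOCS1* lies wholly inside *RMI2* (20.7 and 23.0 FPKM) over 1766 bases. *SOCS2*, whose FPKM ratio of 2.32 rests on 54.1 and 130 read equivalents, shares 1947 bases with the antisense gene *SOCS2-AS1*. *JAK2* overlaps *INSL6*, listed at 0 in both libraries, and *CISH* shares 312 bases with *MAPKAPK3* (3.02 and 2.80 FPKM). In the annotation used here, *STAT5A* and *STAT5B* overlap by 1087 bases.

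STAT5 binds the letters TTCNNNGAA, in which N is any base, and the windows around the starts of the members were searched for them on both strands, which are the same for a palindrome. Sequences of 9 members came from the RefSeq promoter table (build GRCh38.p14, 250 bases before to 50 after a start), in 18 windows. *SOCS2* had no window there and was not searched. The *CISH* window held 4 matches, and no window of the other 8 members held any. Of all 35116 promoter windows 7.66% held at least 1 match and 0.456% held 2 or more. The first 200 bases of the *CISH* window, on the minus strand of chr3:50611825-50612024, are shown because all 4 matches fall in them, in capitals, at 241, 230, 129 and 112 bases before the start:
CISH promoter: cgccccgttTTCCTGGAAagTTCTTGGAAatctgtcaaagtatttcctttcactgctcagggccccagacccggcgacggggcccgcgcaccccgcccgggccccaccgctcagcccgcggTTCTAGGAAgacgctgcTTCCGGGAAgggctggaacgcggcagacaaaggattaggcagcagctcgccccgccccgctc

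A match is a description of the letters and not of binding, and no STAT5 binding was measured here. The gene that carries them was at 0.561 FPKM in EtOH and 0.140 in R5020.

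PR binding sites lay within 50 kb of 7 of the 10 genes, and of all gene symbols 45.6% had such a site. Of the 6 retained genes 5 had one, against 52.7% of all retained genes and 61.4% of the retained genes that were higher in R5020. The exception was *JAK2*, whose nearest site lay 305 kb away. *SOCS2* (chr12:93963598-93969978, plus strand) and *SOCS3* (chr17:76352859-76356158, minus strand) had none either, with the nearest at 83.5 and 79.9 kb. Sites and loci are given on build hg19, as the authors' files have them.

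In all 22 sites lay within 50 kb of a member, 8 of them inside a member's locus. They are numbered 1 to 22 by chromosome and position where their sequence is shown. The deposited score of a site, which runs from 50 to 1965 over all sites with a median of 74.5, is not defined in the files and was read as a rank. The 22 sites had a median score of 68.8, 9 of them were at or above the median of all sites, and 2 reached 100, a score that 16.3% of all sites reached.

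*STAT5A* (chr17:40439565-40463960, plus strand), *STAT5B* (chr17:40351195-40428424, minus strand) and *STAT3* (chr17:40465343-40540513, minus strand) stand next to each other, so their sites are shared. Together they had 11 sites, and 5 of these lay within 50 kb of all 3 genes. Among the 5 was the highest-scoring site of any member (chr17:40446338-40447119, score 172, higher than 97.1% of all sites), in an intron of *STAT5A* 7.16 kb past its start. Another 2 lay inside *STAT5A*, at 1.55 kb (score 70.5) and 4.62 kb (score 70.8) past the start, and 1 lay before it at −4.22 kb (score 65.4). The fifth (chr17:40428822-40429328, score 97.5) lay at −0.65 kb from the start of *STAT5B* in the authors' annotation, and at −10.5 kb from that of *STAT5A*. No site lay inside *STAT3* or *STAT5B* as the files delimit them, although the GENCODE annotation extends *STAT5B* farther upstream and places both the fifth site and the site at −4.22 kb from *STAT5A* in its introns. *STAT5B* had 7 sites within 50 kb and *STAT3* had 9, of which 4 lay upstream at −33.1 to −43.8 kb from its nearest start, nearer to *PTRF* (now *CAVIN1*).

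*PRLR* (chr5:35048861-35230823, minus strand) had 5 sites, 3 of them inside the gene. The strongest (chr5:35230027-35230705, score 121, above 91.9% of all sites) was centred 0.458 kb past the start of the abundant variant NM_000949. A second (score 88.2) lay 24.9 kb past that start, and the third (score 66.8) lay at −1.63 kb from the more downstream start in the files, that of NM_001204314. *JAK1* (chr1:65298906-65432187, minus strand) had a single site, 11.2 kb past its start in an intron (score 85.7).

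Of the inhibitors, *SOCS1* (chr16:11348274-11350039, minus strand) had a site in its exon, 0.492 kb past the start (score 97.1), and another 22.8 kb past it (score 65.1). *CISH* (chr3:50643885-50649262, minus strand) had 3 sites, the nearest 4.18 kb beyond its end (score 90.5). Of the 2 genes called higher, *JAK2* (chr9:4985245-5128183, plus strand) had no site within 50 kb. *SOCS1*, at 11.6 and 11.5 read equivalents, lay below an FPKM of 1 in both libraries, so no fold was called for it. At this depth a fall or a small change could be missed.

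**Figure D4:**
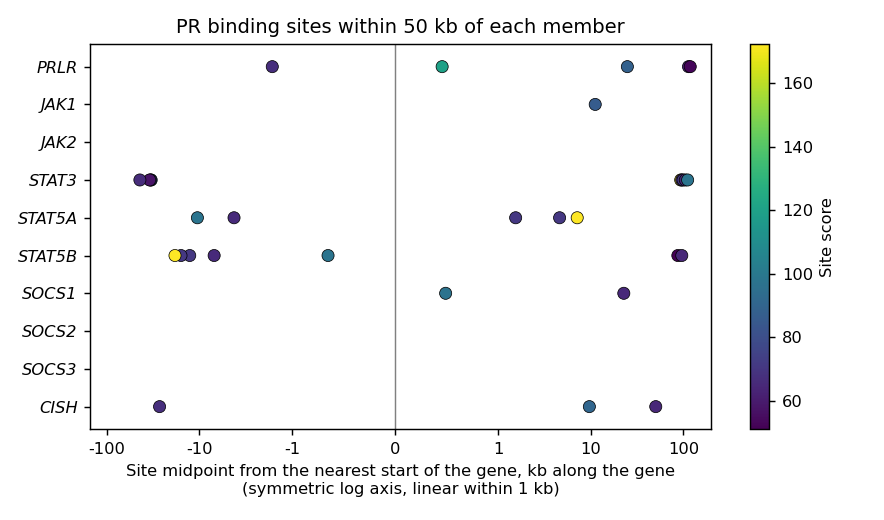
Distance of each PR binding site's midpoint from the nearest start of the gene, in kb along the gene (symmetric log axis, negative is upstream), for each member with the sites within 50 kb of its locus, coloured by the deposited score. Sites within 50 kb of several members appear once in each of their lines; the highest score (172) lies 7.16 kb past the start of *STAT5A*, and the lines of *JAK2*, *SOCS2* and *SOCS3* are empty.

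Some sites lay nearer to other genes than to a member. These genes were *KCNH4*, *HCRT* and *GHDC* beside *STAT5B*, *PTRF* and *ATP6V0A1* beside *STAT3*, *C3orf18*, *HEMK1* and *MAPKAPK3* beside *CISH*, and *AGXT2* and *DNAJC21* beside *PRLR*. No fold was called for *AGXT2* (0.361 and 0.0794 FPKM), *KCNH4* (0.0120 and 0.174 FPKM), *HCRT* and *C3orf18*, which lay below an FPKM of 1 in both libraries. *HCRT* and *C3orf18* were listed at 0 in both. The others of these genes stayed under 1.5-fold, with log2 changes from −0.30 (*GHDC*, 3.61 and 2.75 FPKM) to −0.02 (*ATP6V0A1*, 14.1 and 13.9 FPKM).

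PR binds a palindrome of the hexamers AGAACA and TGTTCT separated by 3 bases. The letters GNACA, 3 bases and TGTNC, which are a palindrome and so read the same on both strands, were found in 1 of the 22 sites, against 2.40% of all sites and 0.805% of windows of the same length 5 kb away. The stricter full letters were in none of the 22 and in 0.0268% of all sites, and at least 1 hexamer was in 6 of the 22 (25.2% of all sites). The match is shown with the bases around it, on the plus strand of chr17:40444026-40444055 (GRCh37, the assembly of hg19), in the site 4.62 kb past the *STAT5A* start, and it lies in an annotated coding exon:
site 9: tgcatccgGCACATTCTGTACaatgaacag

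The highest-scoring site of *STAT5A* held 2 hexamers and no match to the palindrome. It is shown for that reason as its 300 bases around both hexamers, in capitals, on the plus strand of chr17:40446544-40446843:
site 10: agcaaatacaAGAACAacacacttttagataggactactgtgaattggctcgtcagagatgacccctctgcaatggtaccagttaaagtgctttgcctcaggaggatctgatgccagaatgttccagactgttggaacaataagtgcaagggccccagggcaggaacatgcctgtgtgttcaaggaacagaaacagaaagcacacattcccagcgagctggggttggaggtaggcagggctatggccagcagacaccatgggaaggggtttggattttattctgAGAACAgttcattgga

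The *PRLR* site at 24.9 kb held 3 hexamers, as did the *JAK1* site, more than any other of the 22. The *PRLR* letters are shown for comparison on the plus strand of chr5:35205763-35206014, with the hexamers in capitals:
site 21: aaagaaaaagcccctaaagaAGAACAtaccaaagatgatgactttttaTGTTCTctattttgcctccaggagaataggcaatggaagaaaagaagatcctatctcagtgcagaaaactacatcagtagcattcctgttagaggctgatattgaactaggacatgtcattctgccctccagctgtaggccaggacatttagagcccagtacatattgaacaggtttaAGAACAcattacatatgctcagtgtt

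The letters in a window do not say whether PR itself touches them.

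Beyond the 10 genes, a list of 36 other genes of JAK-STAT signalling was read in the same way, and 26 of them were retained. Of these 1 was higher and 1 lower, where 7.67% and 4.14% of all retained genes were, and the median log2 change was −0.03 against 0.01 for all retained genes. The higher one was *IL6ST*, which encodes gp130, the shared receptor chain of the IL-6 family that signals through *JAK1* and *STAT3*. It stood at 9.56 FPKM in EtOH and 38.7 in R5020 (log2 change 1.91). The lower one was *IL11RA*, a receptor that pairs with gp130, at 1.96 and 0.926 FPKM (−0.62). The 2 most abundant of the others were the phosphatase genes *PTPN11* (44.2 and 46.8 FPKM) and *PTPN1* (22.3 and 27.7). Of the 36 genes 24 had a PR site within 50 kb, to be read against the 45.6% of all symbols.

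A list of 22 genes that are known STAT targets or partners of STAT5 in mammary cells had 16 retained genes, of which 7 were higher and 4 lower, beside the 7.67% higher and 4.14% lower of all retained genes. Its median log2 change was −0.16. The list was drawn up with earlier results of these data known, so nothing particular to it is read from these counts. The higher genes were *CEBPD* (10.2 to 66.9 FPKM, log2 change 2.60), a transcription factor under STAT3 in involution, *CCND1* (22.2 to 120, 2.38), which encodes cyclin D1, and *PIM2* (2.62 to 13.7, 2.02), a survival kinase. *MYC* (1.53 to 8.31, 1.88), *BCL2L1* (36.9 to 64.8, 0.80), *BCL6* (10.5 to 17.3, 0.66) and *MCL1* (37.6 to 59.9, 0.66) completed them. The genes *BCL2L1* and *MCL1* encode proteins that hold off apoptosis, and *BCL6* encodes a repressor that binds STAT5 sites.

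The 4 lower genes were *BCL3* (8.92 to 0.935 FPKM, log2 change −2.36), an NF-kappa-B cofactor, *ID1* (9.17 to 4.38, −0.92), *PGR* (23.7 to 15.3, −0.60), which encodes PR itself, and *PIM3* (10.1 to 6.41, −0.59). The milk protein genes *CSN2*, *CSN1S1* and *LALBA* and the RANK ligand gene *TNFSF11* were listed at 0 in both libraries. *ELF5*, the alveolar factor that works beside STAT5, and *NFIB* were the 2 most abundant of the others, with 37.9 and 26.3 FPKM (log2 change −0.51) and 22.5 and 20.7 FPKM. Phosphorylation and DNA binding of STAT proteins were not measured.

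**Figure D5:**
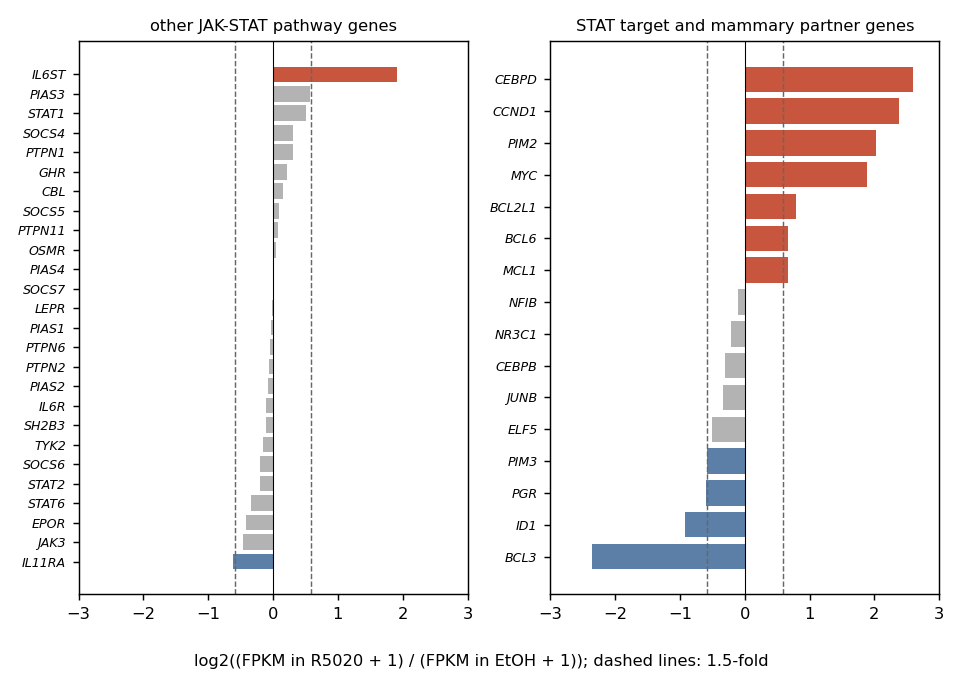
Log2 change from EtOH to R5020 of the retained genes of both lists, 26 other JAK-STAT genes on the left and 16 STAT targets and mammary partners on the right, with dashed lines at 1.5-fold and bars in red (higher), blue (lower) or grey. *IL6ST* (1.91) stands alone on the left, and on the right the bars run from *BCL3* (−2.36) to *CEBPD* (2.60).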

How the data were processed

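RNA was read as 50-base paired ends from poly(A)+ RNA of 2 libraries. Per the study's methods, the authors aligned the reads to hg19 with TopHat, discarded those with several positions, and quantified transcripts with Cufflinks. The methods name an Ensembl annotation and the results RefSeq; the deposited members carry RefSeq transcript identifiers. The deposited values are FPKM per transcript, the bounds of the Cufflinks interval of each FPKM, and coverage (mean read depth, a signal not scaled to the library). The authors aligned ChIP-seq reads with Bowtie 1.1.2 and called PR binding sites with MACS against input DNA. The deposited site list has a score per site. Input DNA served only in the authors' site calling.

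FPKM values were summed per gene symbol, and a pseudocount of 1 was added before the log2 ratio. Genes with FPKM of 1 or more in at least 1 library were retained, and 1.5-fold was the threshold. A site was assigned to a gene within 50 kb of its transcripts. Letters in PR sites were searched in GRCh37, after checking that no transcript or site on the members' chromosomes ran past its end. In that build 3 sites had no sequence. The STAT5 letters were searched in the promoter windows of build GRCh38.p14. Python 3.11.15, pandas 2.3.3, numpy 2.4.6 and pysam 0.24.0 were used. The fold and site-distance steps were tested on simulated data, with genes well above the FPKM minimum and changes well beyond 1.5-fold. That test did not cover levels as low as those of *STAT5A* and *JAK2* in EtOH, nor the letter searches. Groups followed the sample labels, while dose and time came from the study's methods. Alternatives were another pseudocount, filter, threshold, scaling, transcript choice, distance, score and motif. Named genes were the 10 members, list genes past 1.5-fold with the 2 most abundant others, the 3 nearest patterns of each member past 1.5-fold, genes nearer to a site, and *FKBP5*. The members and lists were chosen with earlier results of these data known.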

Additional observations from a re-analysis of the deposited data

How the results depend on the processing

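With 1 library per condition no replicate could be left out. No paired analysis was possible because each condition has 1 library. The call of *STAT5A* and *JAK2* rests on their low listed EtOH values: with an FPKM of 1 required in both libraries, 0 members were higher. For *JAK2* the listed value, 0.895, lay below its own interval of 1.13 to 1.498. With the midpoint of each interval in place of the listed FPKM, 2 member transcripts were higher. With no pseudocount and no filter, chosen after seeing the data, 3 members were higher and 2 lower, since *SOCS2*, *SOCS3* and *CISH* then count. The log2 change of *STAT5A* ran from 1.54 after rescaling to 3.17 with a pseudocount of 0.1, 3.75 with none and 3.99 from coverage. That of *JAK2* ran from 1.23 to 1.85, 1.96 and 1.86. For single genes, the settings with no pseudocount and from coverage were not planned either. From coverage *SOCS1* turned to −0.047. Among the other JAK-STAT genes, a pseudocount of 0.1 gave 2 higher and 3 lower, and 0 were lower with the highest transcript, with an FPKM of 1 in both, or at 2-fold. At 2-fold, 4 STAT targets were higher and 1 lower. Sites near a member numbered 12 within 10 kb, 14 within 25 kb and 2 at a score of 100 or more; with that score 4 members had a site. The palindrome letters were in 0 member sites with the strict letters, with 1 mismatch to them, or in the central 300 bases. Of 59 alternatives for the counts 16 moved them by over 1.5 times or to or from 0; of 50 for single genes 15 moved a value by over 0.1 and 1 turned its sign. The cause was not tested.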
